A study of Mus musculus with 6 samples.

Results

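The genes described here are Csf1r, the receptor for colony-stimulating factor 1 (CSF1), its ligands Csf1 and Il34, and 7 genes used to recognise macrophages and their states, Adgre1, Cd68, Mrc1, Cd163, Arg1, Nos2 and Msr1. They were taken by name from the deposited gene-level table, where Adgre1 is listed under its older name Emr1 and Il34 under a clone name that the platform annotation assigns to it. All 10 were found, among 29516 genes with at least 1 probe. Expression was measured on Illumina beadchips in gastrointestinal stromal tumours (GIST) of mice, sarcomas of the gut wall in which the kinase KIT is often mutated and active. Every mouse carried the genotype written Kit V558Δ/+ in the labels, on the C57Bl/6 strain, and was 6 weeks old, so the controls carried the allele too. There were 3 vehicle arrays and 3 imatinib arrays, both agents injected into the peritoneum, and the labels give neither dose nor duration. The labels name 6 tumours but not the animals they came from, so the p-values measure only the spread between these samples, which may be technical.

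CSF1R is a receptor tyrosine kinase of the same class as KIT, and signals through it support the survival, growth and maturation of monocytes and macrophages. CSF1 and interleukin 34 are separate ligands that bind the same receptor. The muscle layers of the gut hold resident macrophages that lie close to the interstitial cells of Cajal, the cells to which GIST is related. Imatinib inhibits KIT, ABL and the PDGF receptors, and also CSF1R.

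The upstream sequences of Csf1, Cd68 and Mrc1 are shown because they set a ligand whose signal was lower on every imatinib array beside 2 macrophage genes whose groups overlapped. They were thus chosen by their values, Csf1 did not pass the test described below, and no link of motif to change was tested. RefSeq promoters of assembly GRCm38.p6 were given for 4 of the 10 genes, and Cd163 was the other. Each line holds the 250 bases before the gene's start, 5′ to 3′ on the gene's strand. The windows are chr3:107760470-107760719 on the minus strand for Csf1, chr11:69666171-69666420 on the minus strand for Cd68 and chr2:14229164-14229413 on the plus strand for Mrc1. Capitals mark matches, on either strand, to the core GAGGAA bound by the myeloid factor PU.1, to TTCNNNGAA, a form read by STAT factors, or to TGANTCA, the AP-1 form. No 2 matches overlapped.
Csf1: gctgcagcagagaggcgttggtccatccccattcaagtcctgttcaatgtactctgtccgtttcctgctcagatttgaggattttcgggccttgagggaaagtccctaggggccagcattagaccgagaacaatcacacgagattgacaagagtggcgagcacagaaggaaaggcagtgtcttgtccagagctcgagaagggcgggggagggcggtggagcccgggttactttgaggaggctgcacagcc
Cd68: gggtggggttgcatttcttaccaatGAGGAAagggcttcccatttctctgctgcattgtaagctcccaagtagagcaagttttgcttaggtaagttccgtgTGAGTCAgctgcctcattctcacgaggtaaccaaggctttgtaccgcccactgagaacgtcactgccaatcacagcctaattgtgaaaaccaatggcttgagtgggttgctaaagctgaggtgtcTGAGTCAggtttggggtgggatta
Mrc1: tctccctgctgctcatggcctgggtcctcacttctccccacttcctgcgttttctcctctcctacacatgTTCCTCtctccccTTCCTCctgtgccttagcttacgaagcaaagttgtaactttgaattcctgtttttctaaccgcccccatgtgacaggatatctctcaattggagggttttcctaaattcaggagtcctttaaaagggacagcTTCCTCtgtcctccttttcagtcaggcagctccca
The GAGGAA core was found 3 times upstream of Mrc1, on the opposite strand, and 1 time upstream of Cd68, where TGANTCA was found 2 times. No match to the 3 motifs was found in the Csf1 window, nor in that of Cd163, whose groups overlapped. Of 32851 such windows in the table, 23.3% held GAGGAA, 7.0% held TTCNNNGAA and 6.7% held TGANTCA.

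Between 20684 and 21439 probes per array were above the negative controls. Kit and Etv1, which mark the tumour's lineage, were detected on all 6 arrays with no call between the groups (limma adjusted p = 0.485 and 0.806). Of 5 measured genes of GIST and Cajal cells none was called, with 3 lower and 2 higher means. Among these 5, Prkcq was lower on every imatinib array (log2 change -0.78, limma adjusted p = 0.109) and Cd34 higher on every one (0.33, adjusted p = 0.195). Some arrays stood apart from the others of their group. On imatinib 3 the mean log2 signal of 3 measured neutrophil genes was 3.41 above its mean over the 6 arrays, against -0.33 and 0.80 on the other imatinib arrays, and 3 measured erythroid genes lay 2.20 above. The mean of the 5 GIST and Cajal cell genes lay at -0.49 on imatinib 3, against -0.06 on imatinib 1 and 0.19 on imatinib 2. On vehicle 1, 9 epithelial genes lay at -1.80, against 0.69 on vehicle 2 and -0.39 on vehicle 3. Values without one of these arrays stand beside several of the results below. Levels are log2 signals after background correction and quantile normalization, and the signals of different probes cannot be ranked against each other.

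With imatinib, the ligand gene Il34 fell 2.98-fold and was the single member that passed the test. Csf1r and Csf1 had lower means, by -0.66 and -0.68 in log2 units, with no overlap between the groups but without passing. The macrophage genes Adgre1, Cd68, Mrc1 and Cd163 overlapped between the groups on their tested probes. Arg1 was detected by its tested probe on every imatinib array and on no vehicle array, and Nos2 and Msr1 were too dim to test. A gene was tested if a probe was detected on at least 3 of the 6 arrays, which 8 of the 10 genes satisfied, and it was called at an adjusted p under 0.05 by limma's moderated test, adjusted by the method of Benjamini and Hochberg over 14713 genes. Of the 8 members tested 1 was called, and of all genes tested 1.58% were called, 1.05% lower and 0.523% higher with imatinib. An unadjusted limma p under 0.05 was found for 4 of the 8 members and for 26.4% of all genes tested. The groups did not overlap for 4 members, 3 lower and 1 higher with imatinib, beside 31.9% of all genes tested, 14.5% lower and 17.4% higher. The 8 tested genes leave out those that were dim, and Arg1 was tested only because it was detected with imatinib. The tissue was measured in bulk, so fewer cells of a type and less RNA per cell cannot be told apart.

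**Figure D1:**
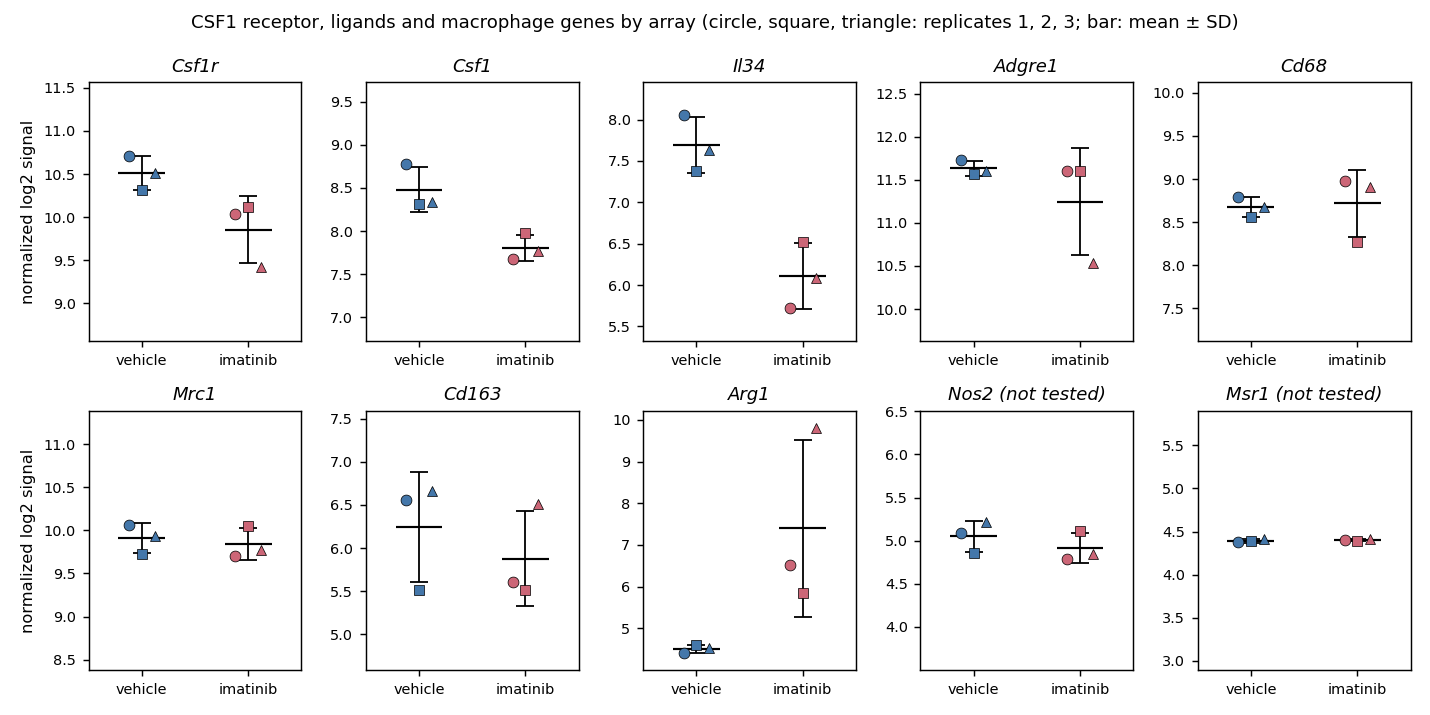
Normalized log2 signal (vertical axes, a range of its own for each gene) of the 10 genes on 3 vehicle and 3 imatinib arrays, with the tested probe of each gene, or the brighter probe of Nos2 and the probe of Msr1. Points are arrays and bars are means ± SD. The imatinib arrays lie below the vehicle arrays for Csf1r, Csf1 and Il34 and above them for Arg1.

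The receptor gene Csf1r had log2 signals of 10.71, 10.31 and 10.52 on vehicle arrays 1, 2 and 3 and of 10.04, 10.12 and 9.42 on imatinib arrays 1, 2 and 3. No imatinib array reached the lowest vehicle array, and imatinib 3 was the lowest. The mean was 10.51 ± 0.20 (SD, n = 3 arrays) with vehicle and 9.86 ± 0.38 with imatinib, a log2 change of -0.66 ± 0.22 (SE, 95% interval -1.18 to -0.13) that did not pass (limma adjusted p = 0.133). A second, dimmer probe of Csf1r read 6.29, 5.61 and 6.16 with vehicle and 5.29, 5.27 and 4.72 with imatinib, and was below detection on imatinib 3. Its groups did not overlap either, and its means differed by -0.93. Without imatinib 3, with probes and normalization kept, the change of the tested probe was -0.44 (limma adjusted p = 0.268).

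Csf1, the ligand gene expressed by many stromal cells, had log2 signals of 8.78, 8.32 and 8.34 with vehicle and 7.67, 7.97 and 7.77 with imatinib. The groups did not overlap, and vehicle 1 was the highest array. The log2 change was -0.68 ± 0.17 (SE, 95% interval -1.08 to -0.27) and did not pass (limma adjusted p = 0.0789). Without vehicle 1 it was -0.52 (adjusted p = 0.166). Csf1 was measured by 1 probe, and the files do not say which of its transcripts the probe reads.

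Il34, the ligand gene best known from skin and brain, had log2 signals of 8.05, 7.38 and 7.63 with vehicle and 5.72, 6.52 and 6.09 with imatinib. The deposited signals, before any correction, were 299.7, 194 and 232 with vehicle and 73.7, 127 and 87.9 with imatinib. Both scales put every imatinib array below every vehicle array, and its single probe was detected on all 6. The mean fell from 7.69 ± 0.34 (SD, n = 3 arrays) to 6.11 ± 0.40, a log2 change of -1.58 ± 0.26 (SE, 95% interval -2.20 to -0.96, limma adjusted p = 0.0474). The call lay close to the threshold and was lost without vehicle 1 (log2 change -1.39, adjusted p = 0.118), without vehicle 3 (-1.61, adjusted p = 0.181), without imatinib 1 (-1.38, adjusted p = 0.138) and without imatinib 3 (-1.57, adjusted p = 0.148).

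**Figure D2:**
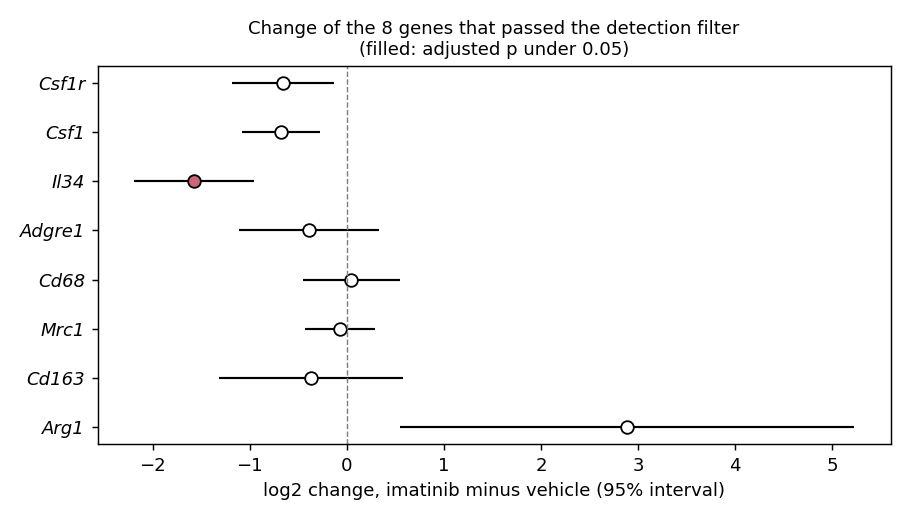
Log2 change, imatinib minus vehicle (horizontal axis), of the 8 genes that passed the detection filter, with 95% intervals from limma. The filled point, Il34 at -1.58, is the gene that passed an adjusted p of 0.05, and the interval of Arg1 is the widest of the 8.

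Receptor and ligands were also set against each other within each array, where only the change of a ratio between groups can be read, not its level. The log2 ratio of Csf1r to Il34 was 2.66, 2.93 and 2.88 with vehicle and 4.31, 3.60 and 3.33 with imatinib, higher on every imatinib array. The difference was 0.92, with a two-sided exact permutation p of 0.1, the smallest that 3 arrays against 3 allow, and 0.2 after adjustment over the 2 ratios run. In the authors' deposited processed values the difference was 0.417, with groups that overlapped (exact permutation p = 0.3). The ratio of Csf1r to Csf1 differed by 0.019 (exact permutation p = 1), so an unequal change of these genes was not detectable. Ratios of Mrc1 and Arg1 to Nos2 were also planned, but Nos2 was below detection.

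Adgre1, which encodes a surface receptor long used to recognise mouse macrophages, had log2 signals of 11.73, 11.56 and 11.61 with vehicle and 11.61, 11.60 and 10.53 with imatinib. Imatinib 1 and 2 lay within the vehicle range and imatinib 3 well below it. The log2 change was -0.39 ± 0.30 (SE, limma adjusted p = 0.433), and it was -0.031 without imatinib 3 (adjusted p = 0.914). A second bright probe read 10.92, 10.90 and 10.84 with vehicle and 10.69, 10.72 and 9.48 with imatinib. On that probe the groups did not overlap, the means differed by -0.59 and imatinib 3 again lay far below the rest. The remaining probe was detected on 2 of the 6 arrays.

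Cd68, a glycoprotein of the lysosomes of phagocytes, read 8.79, 8.56 and 8.68 with vehicle and 8.97, 8.27 and 8.91 with imatinib. The vehicle arrays lay inside the range of the imatinib arrays. The log2 change was 0.04 ± 0.21 (SE, limma adjusted p = 0.909) with a 95% interval of -0.46 to 0.54. The sign of this change turned under some other settings, none of which called it.

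Mrc1, the mannose receptor CD206 of tissue and alternatively activated macrophages, read 10.06, 9.72 and 9.94 with vehicle and 9.70, 10.04 and 9.77 with imatinib. The groups overlapped over nearly their whole range, and the log2 change was -0.07 ± 0.15 (SE, 95% interval -0.43 to 0.29, limma adjusted p = 0.792). Cd163, the scavenger receptor for haemoglobin bound to haptoglobin, read 6.56, 5.52 and 6.66 with vehicle and 5.61, 5.51 and 6.51 with imatinib. Vehicle 2 was as low as imatinib 1 and 2, and imatinib 3 was as high as vehicle 1 and 3. The log2 change was -0.37 ± 0.39 (SE, 95% interval -1.32 to 0.58, limma adjusted p = 0.57). Without imatinib 3 it was -0.69 (adjusted p = 0.402). A second Cd163 probe was detected on no array.

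Msr1, the class A scavenger receptor, was below detection on all 6 arrays, with log2 signals between 4.37 and 4.42 on its single probe. Nos2, the inducible nitric oxide synthase of classically activated macrophages, was detected by its brighter probe on vehicle 3 and imatinib 2 and by the other on no array. The brighter probe read 5.08, 4.86 and 5.22 with vehicle and 4.79, 5.11 and 4.85 with imatinib, close to the lowest detected signals, which ranged from 5.04 to 5.14 over the arrays. No level of either gene can be read from these probes.

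Arg1, arginase 1, splits arginine into ornithine and urea and marks alternative activation of mouse macrophages. Its tested probe read 4.40, 4.59 and 4.53 with vehicle, all below detection, and 6.52, 5.86 and 9.81 with imatinib. Every imatinib array lay above every vehicle array, and imatinib 3 lay far above the other two. The signal was at least 4.86-fold higher with imatinib, and at least 2.10-fold without imatinib 3, with the vehicle arrays set to the lowest detected signal, but the measured log2 change of 2.89 ± 0.97 (SE) did not pass (limma adjusted p = 0.134). The other probe read 4.71, 5.17 and 4.95 with vehicle and 5.13, 5.67 and 7.88 with imatinib. That probe was detected on vehicle 2, imatinib 1 lay within the vehicle range, and the means differed by 1.28. Without imatinib 3 the change of the tested probe was 1.68 (limma adjusted p = 0.108). With that array left out before the filter, the other probe stood for the gene and changed by 0.46.

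Genes of neutrophils were high on the same array as Arg1. S100a8, a calcium-binding protein abundant in neutrophils, read 4.86, 4.86 and 6.69 with vehicle and 8.61, 7.30 and 12.06 with imatinib, and was not called (log2 change 3.85, limma adjusted p = 0.122). Without imatinib 3 its change was 2.49 (adjusted p = 0.199). Of 10 neutrophil genes 3 were measured, none was called, and 2 had an unadjusted limma p under 0.05. The mean of those 3 ranged from -1.64 to -0.63 on the vehicle arrays and from -0.33 to 3.41 on the imatinib arrays, relative to all 6. The granule genes Mpo, Elane, Ltf and Ngp were detected on no array. Camp, also a granule gene, was detected on 2 imatinib arrays and no vehicle array. It read 4.77, 5.05 and 4.84 with vehicle and 4.99, 5.07 and 5.10 with imatinib, close to the lowest detected signals. The chemokine receptor gene Cxcr2 was detected on imatinib 3 alone. Liver also expresses Arg1, and in a list of 7 hepatocyte genes chosen after these values were seen, 1 was measured. Albumin (Alb) was detected on no array, while transthyretin (Ttr) read 7.42, 8.93 and 7.64 with vehicle and 9.37, 9.65 and 10.19 with imatinib. Of the others, Apoa2 was detected on 2 imatinib arrays and Ahsg on 1, neither on a vehicle array, and Apoh, Fgb and Tat on no array. The part of neutrophils or of other tissue in the Arg1 signal was not tested.

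**Figure D3:**
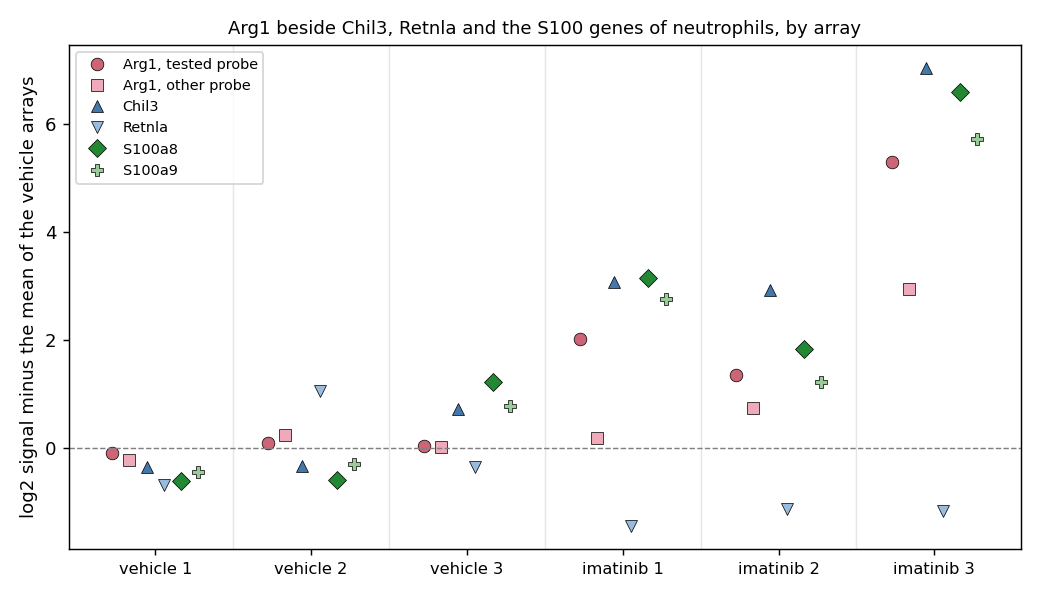
Log2 signal of both Arg1 probes, Chil3, Retnla, S100a8 and S100a9 on each array, minus the mean of each probe over the vehicle arrays (vertical axis), with arrays along the horizontal axis. The tested Arg1 probe, Chil3 and both S100 genes are highest on imatinib 3 and Retnla lies below its vehicle range on all imatinib arrays.

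Other genes of the same biology were counted in 8 lists with 126 genes, of which 96 were measured. Of these 6 were called, 2 higher and 4 lower with imatinib, or 6.25%, beside 1.58% of all genes tested. The lists were chosen with earlier results of these data known, which can raise their share, so no enrichment can be read from it. The median log2 change over the 96 was -0.11, against 0.04 over all genes tested. Each of the 6 calls was lost when vehicle 1, vehicle 3, imatinib 1 or imatinib 3 was left out (limma adjusted p from 0.0942 to 0.185), and none of the 96 genes was then called, with 25 to 35 at an unadjusted p under 0.05.

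No gene passed among 21 measured genes of macrophage identity, while 11 had an unadjusted limma p under 0.05. A lower mean was found in 15 of the 21, with a median log2 change of -0.28, and 10 had all imatinib arrays below all vehicle arrays. Over all genes tested, 45.7% had a lower mean and 14.5% had all imatinib arrays below. Relative to the 6 arrays, the mean of the list was 0.20, 0.08 and 0.09 with vehicle and 0.06, -0.23 and -0.20 with imatinib. The complement gene C1qa, made by macrophages, changed by -0.76 ± 0.17 (SE, limma adjusted p = 0.0676), the calcium-binding protein gene Aif1 by -0.59 ± 0.16 (adjusted p = 0.095) and the Fc receptor gene Fcgr1 by -0.61 ± 0.17 (adjusted p = 0.0968). In the opposite direction Mertk, a receptor for the uptake of dead cells, read 8.22, 9.10 and 8.59 with vehicle and 9.54, 9.21 and 9.74 with imatinib. Itgam and Vsig4 were too dim to test.

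The members were compared with this list within arrays, a comparison added after the data were seen. Relative to the list mean, Csf1r differed by -0.41 between groups, with overlapping arrays (exact permutation p = 0.2, and 0.667 adjusted over the 5 members compared). Adgre1 differed by -0.14, Cd68 by 0.29, Mrc1 by 0.18 and Cd163 by -0.12, with exact permutation p values from 0.3 to 1. A change of these members apart from the other macrophage genes was not detectable with 3 arrays a group.

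Among 14 measured genes of CSF1R signalling and of the myeloid lineage, Maf fell and the other 13 did not pass. Maf, a transcription factor of macrophages and of some T cells, read 8.73, 8.27 and 8.86 with vehicle and 7.43, 7.62 and 7.22 with imatinib, a 2.29-fold fall (limma adjusted p = 0.0471). The transcription factor gene Ets2 changed by 0.93 ± 0.27 (SE, limma adjusted p = 0.103). Spi1, which encodes PU.1, changed by -0.34 (adjusted p = 0.129), and the median of the list was -0.20.

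Among 10 measured genes of other colony-stimulating factors, receptors of the same class and ligands, Sdc1 rose and 9 did not pass. Sdc1 encodes syndecan 1, a cell-surface proteoglycan that also binds interleukin 34, and read 7.12, 7.37 and 7.39 with vehicle and 8.87, 8.54 and 9.17 with imatinib, a 2.96-fold rise (limma adjusted p = 0.0366). Epithelial cells and plasma cells express it as well. The mean of 9 epithelial genes, relative to all 6 arrays, ranged from -1.80 to 0.69 with vehicle and from 0.29 to 0.66 with imatinib, while the mean of 4 measured B cell genes was higher on every imatinib array, by 1.29. Cd79a, a chain of the B cell receptor complex, rose among these 4 (log2 change 1.65 ± 0.23 SE, limma adjusted p = 0.0417), a call lost without vehicle 1 or imatinib 3. The part of these cells in the Sdc1 values was not tested. The phosphatase receptor gene Ptprz1, another receptor for interleukin 34, changed by 0.51 (adjusted p = 0.201). Pdgfra, a kinase receptor of the class of CSF1R, changed by 1.45 ± 0.25 (SE, adjusted p = 0.052), and Csf2ra, a chain of the GM-CSF receptor, by -0.55 ± 0.14 (adjusted p = 0.0854). The growth factor genes Csf2 and Il3 were detected on no array, and Csf3 on 1.

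In the classical activation list, Cxcl9 fell and 12 of 13 measured genes did not pass. Cxcl9, a chemokine induced by interferon gamma, read 13.64, 13.52 and 13.78 with vehicle and 9.35, 10.89 and 7.77 with imatinib, a 19.9-fold fall (limma adjusted p = 0.0493). Its neighbour in function Cxcl10 changed by -4.01 ± 0.71 (SE, adjusted p = 0.053) and the costimulatory ligand gene Cd86 by -0.68 ± 0.16 (adjusted p = 0.0743). The median of the list was -0.44, and 8 of the 13 had a lower mean.

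In the alternative activation list none of 11 measured genes passed in limma's test, and 5 had an unadjusted p under 0.05. These genes did not share a direction. Chil3, a chitinase-like protein of alternatively activated macrophages that neutrophils also make, read 4.69, 4.70 and 5.76 with vehicle and 8.11, 7.97 and 12.10 with imatinib (log2 change 4.34, limma adjusted p = 0.0842, and 2.99 without imatinib 3). Retnla, another gene of this state in mice, read 5.27, 7.01 and 5.60 with vehicle and was below detection on all imatinib arrays, at least 1.88-fold lower (adjusted p = 0.142). The chemokine gene Ccl17 was at least 1.08-fold higher and was detected on imatinib arrays alone (adjusted p = 0.053). Retnla was tested only because it was detected with vehicle, and Ccl17 only because it was detected with imatinib. Both are among the 5 genes with an unadjusted p under 0.05. The transcription factor gene Irf4 changed by 0.56 ± 0.15 (SE, adjusted p = 0.0946). The median of the list was 0.11, with 7 higher and 4 lower means.

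Among 11 measured genes of arginine metabolism, Nos1 rose, Gatm fell and 9 did not pass. Nos1, the nitric oxide synthase of neurons, rose 2.03-fold (log2 change 1.02 ± 0.13 SE, limma adjusted p = 0.0401). Gatm, which uses arginine in the first step of creatine synthesis, read 7.82, 7.49 and 7.75 with vehicle and 6.45, 6.30 and 5.66 with imatinib, a 2.92-fold fall (adjusted p = 0.0426). Ass1, which makes the precursor of arginine, changed by 0.77 ± 0.24 (SE, adjusted p = 0.119). Arg2, the mitochondrial arginase, read 6.94, 9.52 and 8.02 with vehicle and 8.89, 8.48 and 9.37 with imatinib, so the groups overlapped.

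Among 9 measured scavenger receptor genes none passed in limma's test and 1 had an unadjusted p under 0.05. Cxcl16, a membrane chemokine that binds oxidised lipoproteins, changed by -0.34 ± 0.12 (SE, adjusted p = 0.15), Stab2 by 0.66 ± 0.29 (adjusted p = 0.202) and the ferritin receptor gene Scara5 by 1.73 ± 0.77 (adjusted p = 0.215). Scara5 read 4.91 on vehicle 1 against 7.35 on vehicle 2, with vehicle 3 higher still, and without vehicle 1 its change was 0.80 (adjusted p = 0.243). Among 8 measured monocyte genes Itgal fell and 7 did not pass. Itgal, an integrin chain of monocytes and lymphocytes, read 6.48, 6.31 and 6.55 with vehicle and 5.75, 5.69 and 5.73 with imatinib, a 1.65-fold fall (limma adjusted p = 0.0454). The mean of 6 measured T cell genes was also lower on every imatinib array, by -0.67. The median of the monocyte list was 0.02, with Treml4 at -0.67 ± 0.27 (SE, adjusted p = 0.18) and Ace at 0.55 ± 0.23 (adjusted p = 0.198). Ccr2, the chemokine receptor of inflammatory monocytes, was detected on imatinib 2 alone.

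**Figure D4:**
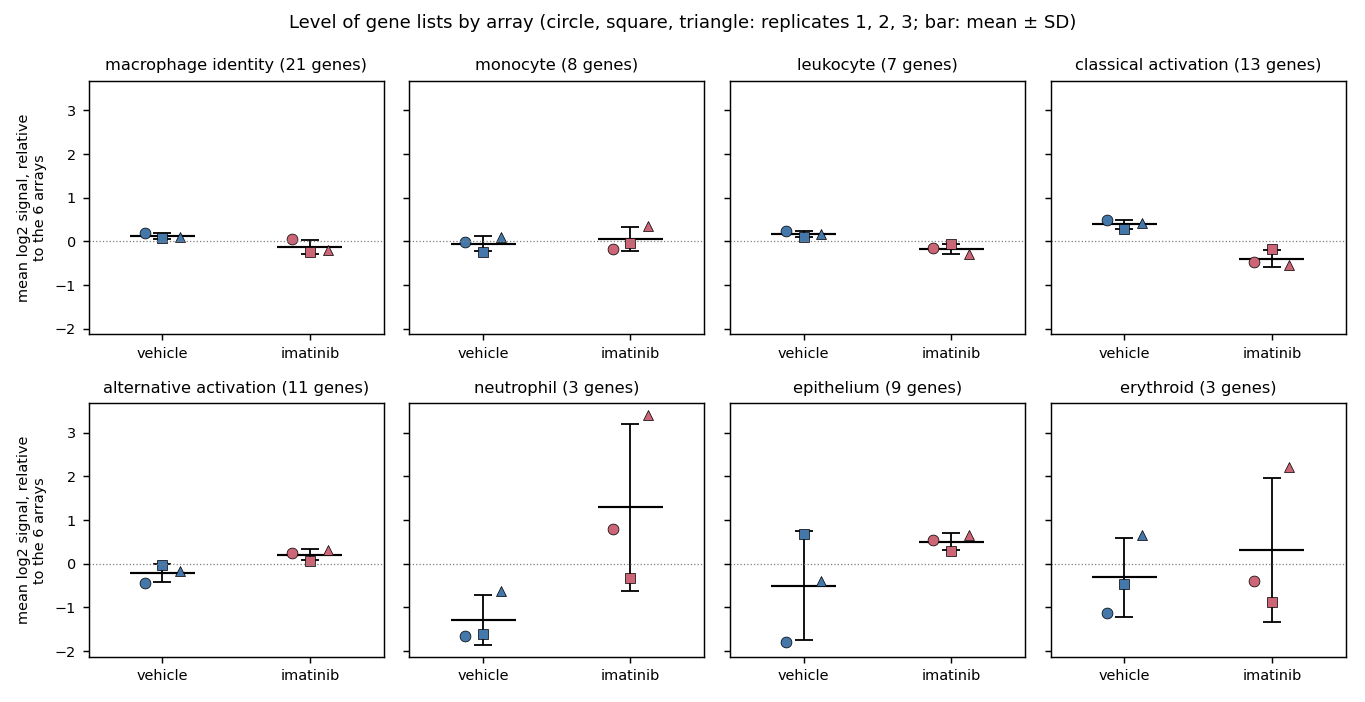
Mean log2 signal of 8 gene lists on each array, relative to the mean over the 6 arrays (vertical axes, shared), for 3 vehicle and 3 imatinib arrays. Points are arrays and bars are means ± SD. The macrophage identity list differs by -0.25 between group means, the neutrophil and erythroid lists are highest on imatinib 3, and the epithelial list is lowest on vehicle 1.

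General leukocyte genes were also measured, since the samples hold other blood cells. Of 7 none was called in limma's test, 4 had an unadjusted p under 0.05, and the median log2 change was -0.42. Ptprc, the pan-leukocyte surface gene CD45, read 9.86, 9.78 and 9.80 with vehicle and 9.49, 9.54 and 9.06 with imatinib (adjusted p = 0.136). The mean of these genes was lower on every imatinib array, as was Csf1r, and the part of leukocyte number in the Csf1r values was not tested. Of 6 measured T cell genes none was called in limma's test, 5 had an unadjusted p under 0.05, all 6 had a lower mean and the median log2 change was -0.73. Among 7 measured dendritic cell genes Xcr1, the receptor for the chemokine XCL1, fell and 6 did not pass. Xcr1 was detected on the vehicle arrays alone, so it was tested only through the group in which it was higher. It was at least 1.81-fold lower with imatinib (limma adjusted p = 0.0417), a call lost without vehicle 1 or imatinib 3. The mean of the dendritic cell list differed by -0.80, with 5 lower and 2 higher means, so its genes did not share a direction. Siglech was higher on every imatinib array (log2 change 0.50, limma adjusted p = 0.131), and Ccr7 changed by 0.09 with groups that overlapped. The part of T cells and dendritic cells in the Maf and Itgal values was not tested.

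Genes with the profile most like that of Csf1r over the 6 arrays were found by the root mean square difference of log2 signals after centring each gene on its own mean. The 5 nearest were Tuba3b at 0.051, Hoxd8 at 0.0547, Diras2 at 0.0691, Pafah1b2 at 0.0749 and Fgd2 at 0.0791 log2 units. For Csf1, near profiles were those of Def6 at 0.061, Itpripl2 at 0.0661, Scd2 at 0.0766 and Tmem229b at 0.0782. The likeness was measured on the same 6 arrays, so their lower values with imatinib follow from the choice.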

How the data were processed

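The 10 genes, the lists and the tests were chosen with earlier results of these data known. Total RNA from 3 vehicle and 3 imatinib tumour samples was labelled with biotin and hybridised, per the labels' protocols. The deposited table of 45281 probes holds, per the file headers, the mean bead intensity of a probe (median 43 beads), its standard error and a detection p-value, with no normalization. A deposited gene-level table holds log2 values, not normalized, and another holds the authors' processed log2 values, brought to 1 distribution. Partek is named in the submitters' processing notes. Scanner software and build are not given in the sources used here.

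Probes were linked to gene-level rows by arithmetic: for each of the 31492 rows, exactly 1 run of neighbouring probes had a log2 mean equal to it on every array, within 8e-06 (6.2e-05 for values of 10 and over). Of rows with 1 identifier, 21546 had a platform symbol. Names were updated through RefSeq (GRCm38.p6). Background was corrected by normexp from detection p-values (limma 3.58.1 in R 4.3.3, offset 16, which makes folds of dim genes too small), followed by quantile normalization. The filter (detection p under 0.05 on 3 or more arrays) left 21395 probes, and the brightest of them stood for each gene. The comparison used lmFit and eBayes of limma, without a block. In a bound, a dim array took its own signal or its lowest detected one, whichever was higher. A bound does not include the spread between arrays. The number of arrays limits the precision. The fit was also run on simulated arrays with known changes and independent noise for each gene. No simulated array stood apart from its group, so that run does not show how such arrays affect the calls here.

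The named genes were the 10 members, every called gene of 8 pathway lists or at least the 3 with the smallest p of each, the 5 nearest profiles of Csf1r and of Csf1, and Kit and Etv1, of which 2 are not reported here. Others were named to show markers or dim members of a list, after their values were seen. The alternatives covered background, normalization, filter, probes, variance, array weights, replicate block, the other deposited tables and each array left out.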

Additional observations from a re-analysis of the deposited data

How the results depend on the processing

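Il34 was lower with imatinib under all 19 alternatives, by -1.78 to -1.08 in log2 units, and its call was kept in 11. It was lost without normalization between arrays (adjusted p = 0.0512), without a filter (0.0681) and with the replicate block (0.153), beside the single arrays named in the report. Csf1r (-0.79 to -0.44), Csf1 (-0.76 to -0.52), Adgre1 (-0.57 to -0.031), Cd163 (-0.87 to -0.14) and Arg1 (0.46 to 2.93) kept their direction, Arg1 in the 18 that could give a value, since it was not detected on all 6 arrays. The lowest Arg1 value came without imatinib 3, where the filter left the other probe.

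The number of members called was 0 without normalization between arrays, without a filter and with the replicate block, with 4 at an unadjusted limma p under 0.05 in each, and 5 with array weights. Of all genes, 355 were called with offset 50, 408 with the mean of a gene's probes, 432 with a trended and robust variance, 382 in the gene-level table and 385 in the processed table, against 232, and 7585 with array weights. With the replicate block 0 were called (2900 at an unadjusted p) and without a filter 0 (5183). Of the pathway genes, 48 were called with array weights, and 0 with the replicate block (39 at an unadjusted p) or without a filter (42), against 6. With 1 array left out, calls ranged from 0 to 1355 over all genes, from 0 to 1 over members and from 0 to 16 over pathway genes, with 1355 and 16 without vehicle 2 and 0 without vehicle 1, vehicle 3, imatinib 1 or imatinib 3 (2402 to 2854 genes at an unadjusted p). The causes were not tested.

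The ratio of Csf1r to Csf1, 0.019 in the report, was -0.021 without background correction, -0.033 with offset 50, -0.025 with median scaling or no normalization, -0.12 with the mean of probes, -0.036 in the gene-level and -0.040 in the processed table, and -0.14 to 0.22 with 1 array left out. Cd68 turned to -0.010 without normalization and to -0.051 without imatinib 3 with probes and normalization kept, a setting added after the data were seen. It ranged from -0.082 to 0.27 with 1 array left out, and Mrc1 from -0.17 to 0.0090. Etv1 turned to -0.025 with median scaling, -0.043 without normalization and -0.33 with the mean of probes, and ranged from -0.045 to 0.30 with 1 array left out (0.31 without imatinib 3 with probes and normalization kept). Kit ranged from -0.77 with the mean of probes to -0.068, and was called lower with array weights (adjusted p = 0.0415). The ratio of Csf1r to Il34 stayed above 0, between 0.417 in the processed table and 1.14. Same-numbered arrays of the 2 groups did not deviate together (correlations over genes of -0.112, -0.308 and 0.0188, and none highest with its own number), so the numbers were not taken as pairs. Ratios to Nos2 were not run.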

Other observations

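Some listed genes were ordered over the vehicle arrays as the epithelial genes were, with vehicle 1 lowest and vehicle 2 highest. Those named here were picked for that order. The share of all genes with it was not counted, so the order alone shows no link to epithelium. Klf4, a transcription factor of the alternative activation list that gut epithelium also expresses, read 8.95 on vehicle 1 and 11.27 on vehicle 2, with vehicle 3 between them, and 11.56, 10.80 and 11.88 with imatinib. Ets2, of the signalling list, read 10.43, 11.47 and 10.72 with vehicle and 11.85, 11.66 and 11.88 with imatinib. Arg2 and Mertk had the same order over the vehicle arrays. The 9 epithelial genes lay at -1.80, 0.69 and -0.39 on these arrays, relative to all 6. The part of epithelium in these values was not tested.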
